A study of Arabidopsis thaliana with 116 samples.

Results

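Aux/IAA proteins and GH3 enzymes were followed here at the transcript level in Arabidopsis seedlings given abscisic acid (ABA) or salicylic acid (SA). The genes were taken by name and locus and comprised 29 Aux/IAA genes (IAA1 to IAA20 and IAA26 to IAA34) and 6 GH3 genes (GH3.1, GH3.2, GH3.3, GH3.5, GH3.6 and GH3.17). All 35 were present among the 27655 genes counted. Wild-type seedlings (Col-0) grew on mesh over agar in long days for 5 days and were then moved to agar with 2 µM ABA, to agar with 150 µM SA, or to agar without added hormone, the control. No group carried a mutation or transgene, and control seedlings of the later times were moved in the same way. Whether seedlings taken at 0 h had been moved is not stated. ABA and SA groups were harvested at 1, 2, 4, 7, 24 and 48 h and control groups at the same times and at 0 h, with root and shoot cut apart at harvest. Each of the 36 groups after 0 h held 3 biological replicates, and the 0 h controls held 4 libraries in each tissue, which gave 58 libraries per tissue. ABA and SA were compared with the same control libraries, so their 2 sets of values are not independent.

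Aux/IAA proteins are short-lived repressors of auxin signalling. Auxin joins an Aux/IAA protein to a TIR1/AFB receptor through a conserved degron in domain II, the repressor is degraded, and auxin response factors (ARFs) that it had held in check can act. Many Aux/IAA genes are themselves ARF targets, so their transcripts are induced by the hormone whose signalling they repress. GH3 enzymes of this group attach amino acids to indole-3-acetic acid, the main auxin, and thereby lower its free level, and several of them are also rapidly induced by auxin. GH3.5 has been shown to act on SA as well as on auxin, and GH3.17 prefers glutamate as the amino acid.

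The degron distinguishes the repressors from one another. In the coding sequences of RefSeq assembly TAIR10.1, codons for its core (glycine, tryptophan, 2 prolines, then valine or isoleucine) were found in 22 of 29 Aux/IAA genes. The core was partial in IAA10, where the last of these codons is for leucine, and was not found in IAA20, IAA30, IAA31, IAA32, IAA33 and IAA34. The degron stretch of the coding strand is printed for genes whose responses are described later, with the 15 bases of the core in capitals.
IAA7: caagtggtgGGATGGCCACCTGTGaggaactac
IAA14: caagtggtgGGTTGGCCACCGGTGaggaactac
IAA17: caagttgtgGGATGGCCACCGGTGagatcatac
IAA3: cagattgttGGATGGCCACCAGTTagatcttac
IAA18: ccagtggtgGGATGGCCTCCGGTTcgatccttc
IAA27: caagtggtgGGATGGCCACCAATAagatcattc
IAA10: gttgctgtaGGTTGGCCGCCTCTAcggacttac

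Upstream of the genes, the 300 bases from 250 before to 50 after the annotated start were searched on both strands for 4 short motifs. TGTCTC, the classical auxin response element, occurred in 16 of 35 members (45.7%), against 14.2% of 27443 promoters of the same length. TGTCGG, another ARF-bound element, occurred in 6 (17.1%), against 5.12%. ACGTGTC, a form of the ABA response element, occurred in 6 (17.1%), against 4.33%. TGACG, bound by TGA factors of the SA response, occurred in 5 (14.3%), against 23.1%. Other forms of these elements were not searched, so a stretch without ACGTGTC may still hold another form of the ABA response element. The first 3 motifs share the letters TGTC, and TGACG ends in the letters with which ACGTGTC begins, so matches can overlap. The 250 bases before the start are printed for 3 members with large or opposed responses, in the direction of transcription, with matches to the motifs in capitals. GH3.2 lies on the plus strand with this stretch at chr4:17579368-17579617, GH3.3 on the minus strand with it at chr2:9866563-9866812, and IAA19 on the plus strand with it at chr3:5263751-5264000.
GH3.2: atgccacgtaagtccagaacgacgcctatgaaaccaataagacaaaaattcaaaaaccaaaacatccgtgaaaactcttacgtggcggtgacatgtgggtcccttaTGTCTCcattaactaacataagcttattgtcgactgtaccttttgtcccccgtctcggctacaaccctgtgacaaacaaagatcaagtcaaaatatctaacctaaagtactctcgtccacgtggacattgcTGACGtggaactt
GH3.3: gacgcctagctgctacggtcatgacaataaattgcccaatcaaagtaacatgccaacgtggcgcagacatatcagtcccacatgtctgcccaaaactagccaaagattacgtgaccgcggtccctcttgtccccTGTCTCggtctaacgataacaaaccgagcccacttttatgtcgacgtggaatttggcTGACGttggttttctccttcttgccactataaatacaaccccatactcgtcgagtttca
IAA19: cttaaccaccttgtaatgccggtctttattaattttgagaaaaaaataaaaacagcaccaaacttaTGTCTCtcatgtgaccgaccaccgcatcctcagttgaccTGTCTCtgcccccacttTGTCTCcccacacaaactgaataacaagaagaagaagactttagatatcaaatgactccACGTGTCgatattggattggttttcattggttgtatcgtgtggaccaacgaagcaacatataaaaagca
IAA19 thus held 3 copies of TGTCTC and 1 of ACGTGTC in this stretch, and GH3.2 and GH3.3 each held 1 TGTCTC and 1 TGACG. A match of letters is a description and does not show that a factor binds there.

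Library totals ran from 46189 to 221250466 counts with a median of 30483879. The lowest was replicate 1 of the shoot controls at 7 h, and values at 7 h in shoot include it unless stated. With it left out, all 35 recomputed counts of members called stayed within 1.5 times the reported count. All 69 recomputed fold changes of named members kept their direction and still passed the test. The next lowest shoot total was 5394870 and the lowest root total 5031509. Replicate 1 of the shoot controls at 0 h stood above its 3 fellows for IAA7, IAA14, IAA28 and GH3.5. The hormone treatments were checked with marker genes. RAB18 and LTI65, induced by ABA, passed the test upward at every time in ABA-treated root and shoot. NIMIN1 and WRKY70, induced by SA, did so in SA-treated root and shoot. LTI65 was also called higher under SA, by less, in roots from 4 h and in shoots from 7 h. RAB18 under SA was called higher in roots at 48 h and in shoots at 24 and 48 h, and lower in shoots at 2 and 7 h. WRKY70 was called lower in ABA roots at every time. Levels are given as CPM, counts scaled to the library total after TMM normalization, which is not adjusted for gene length. Root markers (6 genes, CASP1 and EXPA7 among them) summed to 165 to 278 CPM in control roots and to 0 to 14.4 CPM in control shoots. Shoot markers (7 genes, RBCS1A and CAB3 among them) summed to 26500 to 46200 CPM in control shoots and to 5.47 to 55.6 CPM in control roots. The library names of the 3 SA shoot libraries at 2 h and of SA root replicates 2 and 3 at 24 h begin with other letters than those of their controls. What the letters stand for is not stated, and for SA shoot at 2 h this and the treatment cannot be told apart.

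At 0 h, Aux/IAA levels were uneven, and the leading repressors differed in part between the organs. The highest held 21.7% of the summed Aux/IAA level in root and 17.3% in shoot, and IAA9 and IAA16 were among the 4 highest in both. Per length (TPM, a scale that divides counts by exon length, here from TAIR10.1), IAA9 had the highest root level at 292 ± 5.25 (SD, n = 4), followed by IAA16 at 211 ± 9.31, IAA17 at 171 ± 3.56 and IAA28 at 135 ± 12.1 TPM. The ranges of these 4 root levels did not overlap. In shoots the order began with IAA7 at 152 ± 42.0, IAA16 at 119 ± 36.3, IAA8 at 92.5 ± 4.54 and IAA9 at 89.0 ± 1.64 TPM, and the ranges of these neighbours overlapped. Without replicate 1 the shoot means of IAA7 and IAA16 were 131 ± 6.49 and 102 ± 9.28 TPM (n = 3). The 29 Aux/IAA genes summed to 1340 TPM in root and 878 TPM in shoot, and the 6 GH3 genes to 109 TPM in root and 76.4 TPM in shoot. On this scale the median gene was also higher in root (log2 ratio 0.68), so the sums are not read as a difference between the organs. Among the GH3 enzymes, GH3.2 and GH3.17 led in root at 26.2 ± 1.32 and 25.6 ± 3.18 TPM, with overlapping ranges, and GH3.6 led in shoot at 32.4 ± 1.80 TPM. IAA15 had 0 TPM in all 4 root libraries. In shoot IAA15 and IAA33 were lowest at 0.039 ± 0.0384 and 0.0531 ± 0.0381 TPM, with overlapping ranges.

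**Figure D1:**
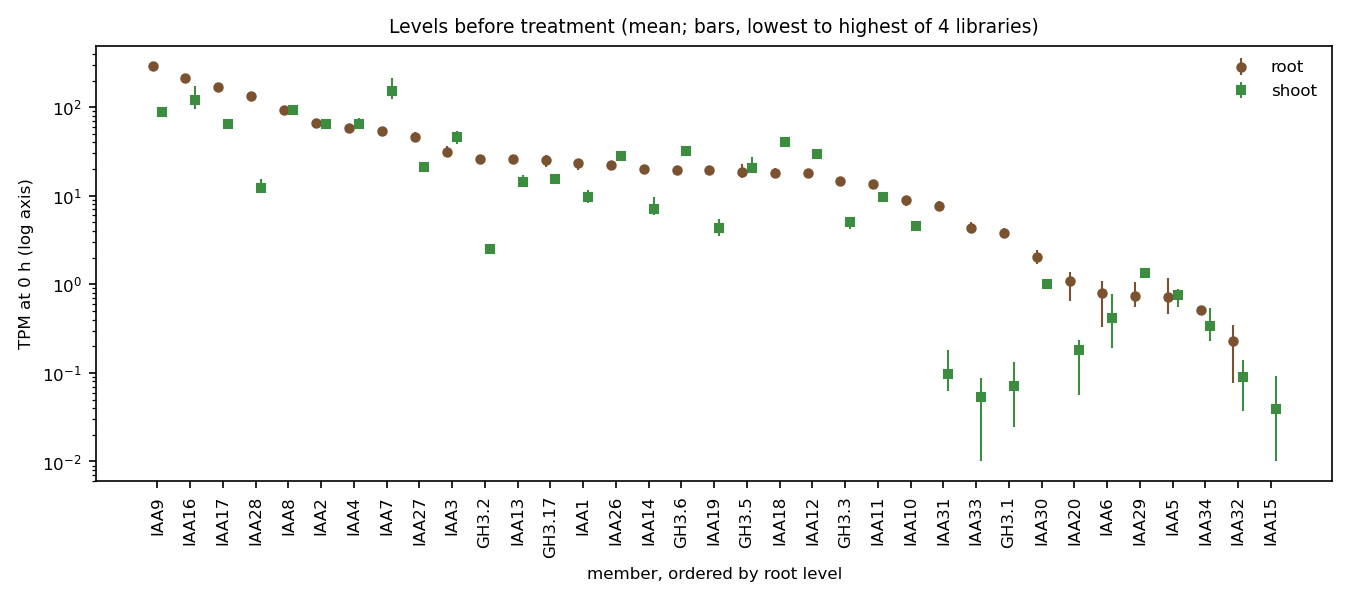
Level at 0 h in TPM (log axis) of each member in root and shoot controls, ordered by root level; points are means and bars run from the lowest to the highest of 4 libraries, and a bar that reaches 0 is cut at the axis. IAA9, IAA16, IAA17 and IAA28 lead in root and IAA7 and IAA16 in shoot, and IAA31, IAA33 and GH3.1 lie under 0.2 TPM in shoot.

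Root and shoot at 0 h were compared in the fit to all libraries of both organs, where 27 of 35 members passed the test (adjusted p under 0.05 throughout), 13 higher and 14 lower in root, against 80.2% of all genes (38.1% higher and 42.2% lower). IAA33 had 78, 82, 81 and 63 counts in root and 1, 2, 0 and 2 counts in shoot, too few there for a fold. IAA31 and GH3.1, with 1 to 9 counts per shoot library, were higher in root by log2 fold changes of 5.38 and 4.87. IAA28, a repressor known from lateral root initiation, was higher by 2.68 and GH3.2 by 2.59. IAA7 was lower in root by a log2 fold change of -2.27, IAA18 by -1.94, IAA12 (BODENLOS, a partner of the ARF MONOPTEROS in the embryo) by -1.52 and GH3.6 by -1.51. The scale matters for this contrast: the median gene with at least 1 TPM in both organs had a log2 root-to-shoot ratio of 0.68 in TPM. Of the 27 called members 24 kept their direction in TPM (13 higher and 11 lower in root), IAA2 and IAA11 did not, and IAA15 had no root TPM. With DESeq2's size factors the split was 17 higher and 12 lower, where the median of all genes moved to 0.22. In bulk tissue, fewer cells that express a gene and less RNA per cell cannot be told apart, here and in every comparison that follows.

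In roots under ABA more members were called higher than lower at every time, while all genes split about evenly. At 1 h, 20 of 34 tested members were called, against 40.5% of all genes: 15 were higher, against 20.9% of all genes, and 5 lower, against 19.6%. At 2 h 22 were called (52.6% of all genes), 17 of them higher (26.4%) and 5 lower (26.2%). At 4 h 24 were called (50.3%), with 18 higher (25.8%) and 6 lower (24.4%), and 7 h gave the same counts (51%, of which 24.7% higher and 26.3% lower). At 24 h 17 were called (39.4%), 14 higher (21.1%) and 3 lower (18.3%), and at 48 h 16 (32.1%), 12 higher (17.4%) and 4 lower (14.7%). The median log2 fold change of the members lay between 0.13 and 0.36 over the 6 times, while that of all genes lay between -0.04 and 0. In the test over all 6 times 29 of 34 were called, against 76.8% of all genes. Over the single times, 21 members were called only higher, 7 only lower, 2 in both directions and 4 never. The shares of all genes under this rule were not counted, so these numbers have no background to be set against. Of the GH3 genes 5 of 6 were higher and none lower at 4 h.

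GH3.2 (AT4G37390) gave the largest response among the well-expressed members in ABA roots. It had 47.1, 55.3 and 55.4 CPM in ABA roots at 4 h, against 10.8, 12.9 and 9.30 CPM in control roots. Every ABA library lay above every control library, and GH3.2 rose by 2.26 ± 0.179 on the log2 scale (SE, adjusted p = 6.05e-15). GH3.5 (AT4G27260) had 52.3, 40 and 29.5 CPM in ABA roots at 2 h and 16.5, 17.0 and 15.8 CPM in control roots, with no overlap and a rise of 1.31 ± 0.146 (adjusted p = 1.83e-10). GH3.6 (AT5G54510) had 85, 75.2 and 61.9 CPM in ABA roots at 1 h, against 26.3, 35.2 and 33.7 CPM in control roots, a rise of 1.23. GH3.17 (AT1G28130) had 63.5, 44.5 and 45.9 CPM in ABA roots at 2 h, against 19.6, 21.2 and 26.9 CPM in control roots, a rise of 1.24, and it was called higher at all 6 times. GH3.3 (AT2G23170) went the other way. It had 11.5, 9.68 and 11.6 CPM in ABA roots at 48 h and 27.1, 26.1 and 32.5 CPM in control roots, without overlap, and fell by 1.43 on the log2 scale (SE 0.164, adjusted p = 6.26e-10).

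**Figure D2:**
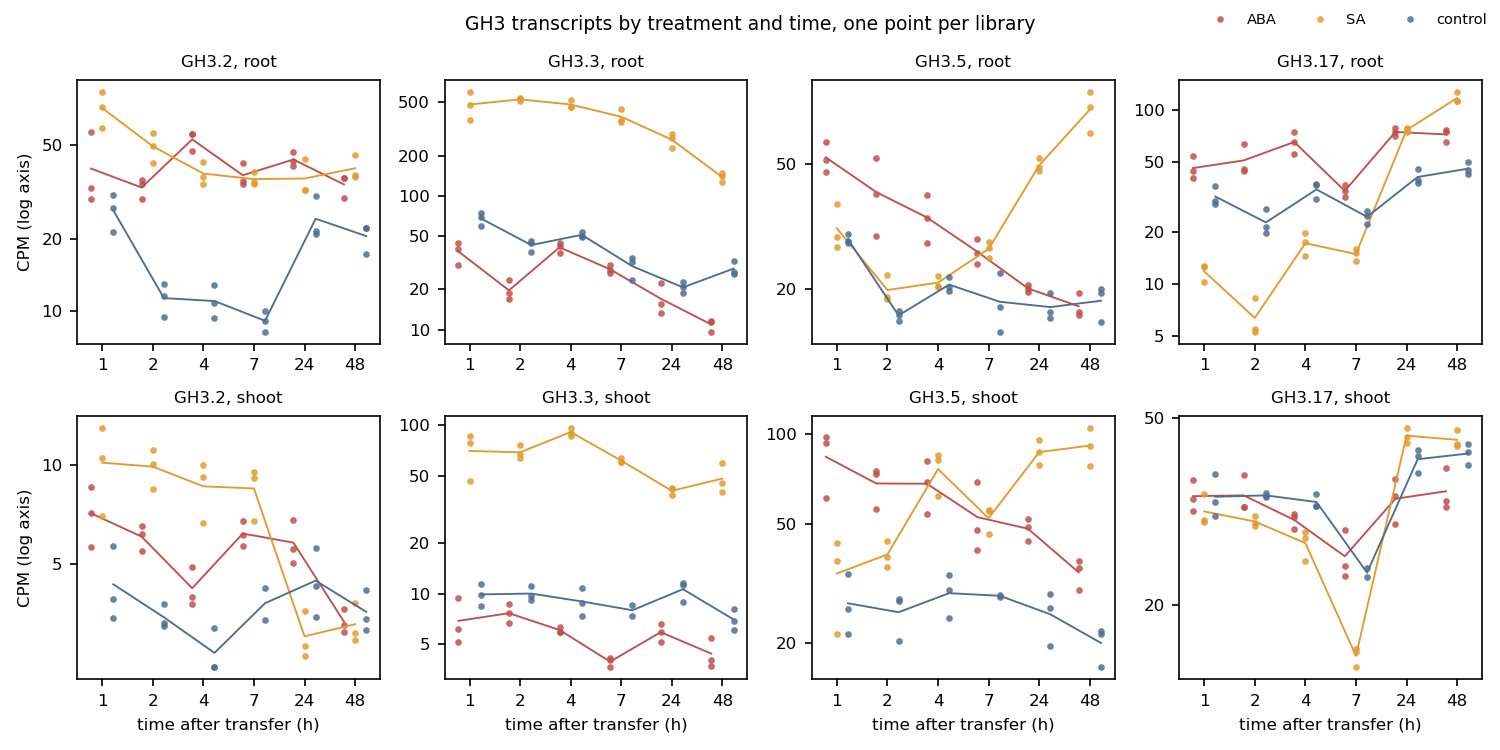
CPM (log axis) of GH3.2, GH3.3, GH3.5 and GH3.17 in root (top) and shoot (bottom) against hours after transfer; each point is 1 library, lines join group means, and the control library of lowest total (shoot, 7 h) is not drawn. GH3.3 lies far above control in SA and at or below it in ABA, and GH3.17 in SA roots lies below control up to 7 h and above it at 24 and 48 h.

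Among the repressors, IAA2, IAA5, IAA7, IAA11, IAA13 and IAA19 were called higher in ABA roots at all 6 times. IAA5 (AT1G15580) had the largest fold of these from a low level: 1.61, 2.23 and 1.87 CPM in ABA roots at 48 h, against 0.148, 0.203 and 0.180 CPM in control roots, a rise of 3.45 over control libraries of 2, 2 and 8 counts. At 4 h each control library held at most 3 IAA5 counts, so no fold is given for that time. IAA11 (AT4G28640) had 15.8, 17.4 and 16.5 CPM in ABA roots at 4 h and 7.04, 6.02 and 7.69 CPM in control roots, a rise of 1.26. IAA30 (AT3G62100), a repressor without the degron core, had 4.65, 5.23 and 5.19 CPM in ABA roots at 1 h, against 1.61, 0.913 and 2.07 CPM in control roots, a rise of 1.70. It was called at the 4 times up to 7 h. IAA7 (AT3G23050, AXR2, named for an auxin-resistant gain-of-function mutant) rose by 0.68 to 0.84 over the 6 times.

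IAA27 (AT4G29080) fell in ABA roots at every time. It had 19.9, 14.1 and 15.3 CPM in ABA roots at 48 h, against 38, 46.3 and 40.3 CPM in control roots. The groups did not overlap, and the log2 fold change was -1.37 ± 0.131 (adjusted p = 4.41e-12). IAA12 (AT1G04550) had 10.8, 10.7 and 10.6 CPM in ABA roots at 2 h and 20.7, 19.3 and 19.1 CPM in control roots, a log2 fold change of -0.89. IAA14, IAA26 and IAA33 were also called lower at 4 or 5 of the 6 times. IAA17, IAA20, IAA29 and IAA32 were called at none, with log2 fold changes from -1.10 to 0.49. IAA15 did not pass the filter on low counts in roots, yet all 18 ABA root libraries held at least 1 IAA15 read (108 reads in all), against 3 of 22 control root libraries (3 reads).

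In shoots ABA moved fewer members, and more of the repressors were lower than higher from 2 h on. At 1 h, 11 of 31 tested members were called (25.4% of all genes), 8 higher (14.5%) and 3 lower (10.9%). At 2 h there were 10 (30.4%), 5 higher (16.4%) and 5 lower (14%). Another 10 were called at 4 h (27.6%), of which 4 were higher (12.9%) and 6 lower (14.7%). The 7 h count was 7 (17.4%), 2 higher (8.47%) and 5 lower (8.98%). At 24 h 12 were called (18.6%), 3 higher (9.97%) and 9 lower (8.62%), and at 48 h 10 (15.3%), 4 higher (7.79%) and 6 lower (7.46%). Over all 6 times 19 of 31 were called, against 50.1% of all genes. These counts rest on few libraries. Without those numbered 2, 0 to 4 members were called at the single times (5.19% to 14.6% of all genes) and 11 over all times (25.4%). Without those numbered 3 the count was 1 at 7 h (6.23%) and 5 at each of 4, 24 and 48 h (9.5% to 14.5%). A fit to the compared groups alone called 1 member at 1 h (5.61%), and DESeq2 called 4 at 7 h (13.1%). With plain library totals, where the median of all genes moved to -0.12, the split at 1 h was 4 higher and 7 lower, and that at 2 h was also 4 and 7. GH3.5 and IAA14 were called higher at every time, GH3.5 by 0.78 to 1.62 and IAA14 by 0.47 to 0.67.

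GH3.5 had 61.0, 93.1 and 97.5 CPM in ABA shoots at 1 h, against 21.4, 26.0 and 34.0 CPM in control shoots. The groups were apart, and the rise was 1.62 ± 0.227 (adjusted p = 2.54e-07). GH3.6 had 74.3, 99.0 and 91.9 CPM in ABA shoots at 2 h and 35.9, 44.0 and 49.3 CPM in control shoots, also apart, and rose by 1.04 ± 0.231 (adjusted p = 0.000396), though not without the libraries numbered 2 (adjusted p = 0.0842). GH3.3 had 4.04, 3.67 and 4.15 CPM in ABA shoots at 7 h, against 0, 7.37 and 8.57 CPM in control shoots, where the 0 is the library of 46189 counts. Its log2 fold change was -1.03 ± 0.238 (adjusted p = 0.00142), and without that library it was -1.04 (adjusted p = 0.0014). Without the libraries numbered 2 or those numbered 3 it no longer passed (adjusted p = 0.0935 and 0.126). IAA27 had 9.82, 9.77 and 10.0 CPM in ABA shoots at 2 h and 18.6, 17.2 and 16.7 CPM in control shoots, with no overlap, and fell by 0.83 on the log2 scale (SE 0.095, adjusted p = 1.57e-09). IAA26 was called lower from 2 h on and IAA17 was called higher at 1 h (0.41) and lower at 24 and 48 h. IAA17 had 42.0, 41.6 and 34.6 CPM in ABA shoots at 48 h, against 59.5, 72.2 and 65.3 CPM in control shoots.

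The ABA response differed between root and shoot for 22 of 35 members in the interaction test over 6 times, against 38.3% of all genes. IAA2, IAA7, IAA13, IAA19 and GH3.17 were called higher in ABA roots and lower in ABA shoots at the same time at 1 or more times, and IAA14 lower in roots and higher in shoots. IAA7 had 106, 103 and 99.9 CPM in ABA roots at 24 h against 54.1, 61.0 and 57.7 CPM in control roots, a log2 fold change of 0.84. In ABA shoots at 24 h it had 107, 105 and 103 CPM against 128, 128 and 152 CPM in control shoots, a log2 fold change of -0.38. The groups did not overlap in either organ, and the shoot call was lost without the libraries numbered 2 or 3 (adjusted p = 0.244 and 0.368). IAA14 (AT4G14550) had 15.9, 17.2 and 13.2 CPM in ABA roots at 24 h against 24.1, 21.7 and 19.9 CPM in control roots (-0.50), and 19.1, 21.5 and 17.9 CPM in ABA shoots against 12.4, 13.0 and 14.3 CPM in control shoots (0.56, adjusted p = 0.287 without the libraries numbered 2). IAA7 and IAA14 share a stretch of 129 bases at 90.7% identity, so a few reads could be assigned to either, and the degron codons printed above differ between them. IAA19 (AT3G15540) had 10.8, 11.1 and 13.3 CPM in ABA roots at 24 h against 8.54, 7.24 and 8.26 CPM in control roots (0.55), and 1.17, 1.29 and 1.02 CPM in ABA shoots against 2.24, 2.89 and 3.39 CPM in control shoots (-1.29). GH3.17 had log2 fold changes of 0.86 in ABA roots and -0.28 in ABA shoots at 24 h, with no overlap in either organ, and the shoot call was lost without the libraries numbered 2 or 3 (adjusted p = 0.179 and 0.417).

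**Figure D3:**
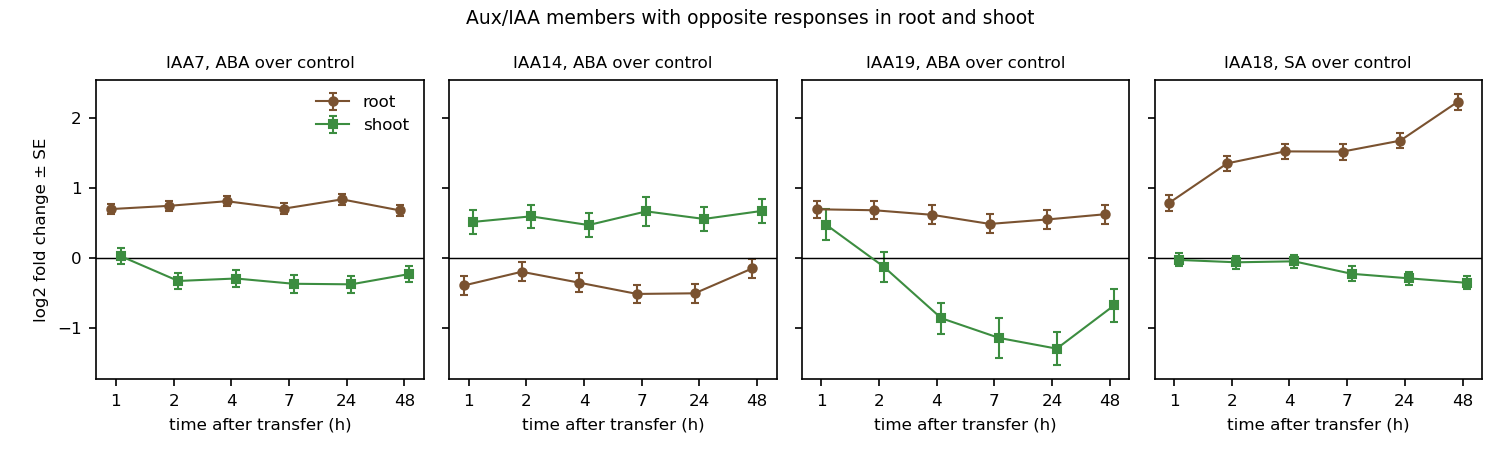
Log2 fold change of hormone over control with its SE against hours after transfer, root and shoot, for IAA7, IAA14 and IAA19 under ABA and IAA18 under SA. Root lies above shoot at all 6 times for IAA7, IAA19 and IAA18 and below it for IAA14; the 7 h shoot points use the control library of lowest total.

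Under SA in roots, the members called were mostly higher at 1 and 2 h, and at 48 h more were lower than higher. At 1 h, 21 of 34 were called (45.2% of all genes), 17 higher (22.7%) and 4 lower (22.5%). At 2 h there were 24 (61.5%), 18 higher (29.4%) and 6 lower (32.1%). At 4 h 21 were called (61.6%), 11 higher and 10 lower (30.8% of all genes each). The 7 h count was 25 (58.3%), 13 higher (27.9%) and 12 lower (30.4%). At 24 h 23 were called (65%), 11 higher (32.1%) and 12 lower (32.9%), and at 48 h 30 (74.9%), 12 higher (36.1%) and 18 lower (38.7%). Over all 6 times 33 of 34 were called, near the 92.6% of all genes. The median log2 fold change of the members was 0.28 at 1 and 2 h and -0.38 at 48 h, while that of all genes stayed between -0.03 and 0. Over the single times 12 members were called only higher, 11 only lower and 11 in both directions. How many of all genes were called in both directions was not counted, so this is not read as a trait of the members. Aux/IAA genes with the full degron core were 12 higher and 1 lower of 21 at 1 h, and 6 higher and 13 lower at 48 h. Those without the core turned the same way, with 2 higher and 1 lower of 6 at 1 h and 1 higher and 4 lower at 48 h. The summed CPM of the 6 root markers averaged 85.9 in roots after 48 h of SA, against 211 in control roots, 97.9 at 2 h, against 179 in control roots, and 85 at 4 h, against 216 in control roots. The part of cell composition in these results was not tested.

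GH3.3 changed most among the well-expressed members. It had 371, 445 and 354 CPM in roots after 7 h of SA, against 23.3, 31.9 and 34.1 CPM in control roots. The groups lay far apart, and the rise was 3.71 ± 0.156 on the log2 scale (adjusted p = 6.65e-25). GH3.3 was called higher at every time, by 2.25 to 3.71. GH3.2 had 56.2, 49.5 and 41.9 CPM in roots after 2 h of SA and 11.5, 13.0 and 9.46 CPM in control roots, a rise of 2.09, and was likewise called at every time. Its 24 h value of 0.56 became 0.41 (adjusted p = 0.153) with only the SA library whose name begins like those of the controls. The 6 GH3 genes together summed to 633 ± 7.91 CPM in roots after 2 h of SA, against 119 ± 6.11 CPM in control roots (SD, n = 3 each).

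GH3.5 and GH3.17 followed a later course in SA roots. GH3.5 was not called up to 4 h and had 75.7, 84.7 and 62.9 CPM in roots after 48 h of SA, against 15.7, 19.3 and 19.9 CPM in control roots, a rise of 2.01. GH3.17 had 8.30, 5.32 and 5.49 CPM in roots after 2 h of SA and 19.6, 21.2 and 26.9 CPM in control roots, a log2 fold change of -1.72 ± 0.160. At 48 h it had 113, 127 and 112 CPM in SA roots, against 42.8, 50 and 45.2 CPM in control roots, a log2 fold change of 1.35 ± 0.137. The groups did not overlap at either time, so the direction turned within 1 treatment.

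IAA18 (AT1G51950) rose throughout in SA roots. It had 67.2, 69.5 and 64.5 CPM in roots after 48 h of SA, against 14.9, 13.9 and 14.1 CPM in control roots, a rise of 2.23 ± 0.116 (adjusted p = 4.90e-22). IAA2, IAA10, IAA13 and IAA16 were also called higher at all 6 times. IAA13 (AT2G33310) had 177, 178 and 188 CPM in roots after 2 h of SA and 41.7, 44.6 and 42.5 CPM in control roots, a rise of 2.07. IAA16 (AT3G04730) had 742, 805 and 765 CPM in roots after 2 h of SA, against 338, 347 and 334 CPM in control roots. IAA10, the repressor with the partial core, rose by 0.38 to 1.25. IAA32 (AT2G01200), which lacks the core, had 3.70, 3.43 and 3.5 CPM in roots after 2 h of SA and 0.416, 0.234 and 0.313 CPM in control roots, a rise of 3.41, and it was not called at 24 or 48 h.

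IAA17 and IAA3 fell deepest among the well-expressed repressors. IAA17 (AT1G04250, AXR3) had 21.8, 20.4 and 25.3 CPM in roots after 48 h of SA, against 126, 125 and 127 CPM in control roots, a fall of 2.49 on the log2 scale (SE 0.092, adjusted p = 1.45e-27). IAA3 (AT1G04240, SHY2, which acts in root meristem size) had 2.05, 2.10 and 2.38 CPM in roots after 48 h of SA and 12.6, 17.3 and 17.1 CPM in control roots, a log2 fold change of -2.85 ± 0.199 (adjusted p = 1.92e-17). Both pairs of groups were fully apart. IAA3 and IAA17 lie 6.4 kb from each other on chromosome 1, in divergent orientation with 1 gene between them. IAA31 (AT3G17600) had 0.370, 0.147 and 0.198 CPM in roots after 48 h of SA, against 4.29, 3.46 and 4.71 CPM in control roots, a log2 fold change of -4.13. IAA6 had 0, 2 and 0 counts in roots after 7 h of SA, against 12, 22 and 17 counts in control roots, and IAA29 had 3, 0 and 0 counts in roots after 2 h of SA, against 43, 32 and 4 counts in control roots; no fold is given for these pairs.

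IAA19 turned from higher to lower within the SA root series. It had 41.6, 41.1 and 37.5 CPM in roots after 2 h of SA, against 11.4, 11.7 and 12.5 CPM in control roots, a log2 fold change of 1.76. At 48 h it had 4.34, 4.60 and 3.87 CPM in SA roots and 10.2, 10.3 and 9.86 CPM in control roots, a log2 fold change of -1.24. IAA1 and IAA30 had the same order of signs, from 0.84 and 1.82 at 1 h to -0.91 and -0.92 at 48 h. IAA26 (AT3G16500) ran the other way, with 56.9, 62.0 and 60.9 CPM in roots after 48 h of SA and 32.1, 31.8 and 35.5 CPM in control roots (0.85), after log2 fold changes of -0.55 at 4 h and -0.53 at 7 h.

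**Figure D4:**
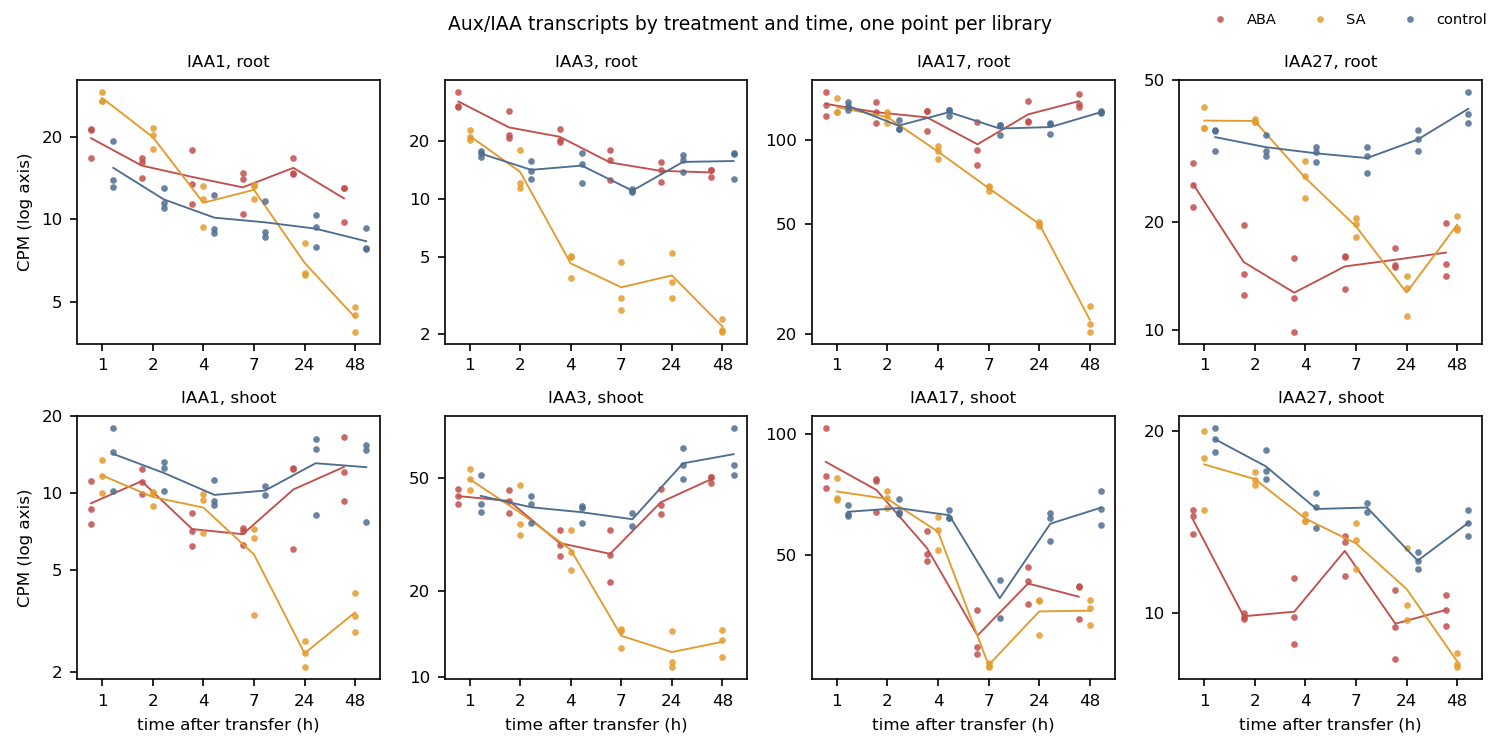
CPM (log axis) of IAA1, IAA3, IAA17 and IAA27 in root (top) and shoot (bottom) against hours after transfer; each point is 1 library, lines join group means, and the control library of lowest total (shoot, 7 h) is not drawn. In SA, IAA3 and IAA17 lie below control in both organs at 24 and 48 h, and in ABA, IAA27 in root lies below control at every time.

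In shoots the SA response came later. At 1 h, 3 of 31 members were called, all higher, against 0.856% of all genes (0.578% higher and 0.277% lower). At 2 h 5 were called, all higher, against 7.28% (5.31% higher and 1.97% lower). At 4 h there were 8 (22.8%), 6 higher (14%) and 2 lower (8.83%), and at 7 h 13 (37.8%), 7 higher (20%) and 6 lower (17.7%). At 24 h 21 were called (59.7%), 6 higher (29.3%) and 15 lower (30.4%), and at 48 h 22 (65%), 8 higher (32%) and 14 lower (32.9%). Over all 6 times 25 of 31 were called, against 70.7% of all genes. The members called at 1 h were GH3.2, GH3.3 and IAA13. Without the libraries numbered 2 the count was 1 at 1 h (0.203% of all genes), 3 at 2 h (1.53%), 3 at 4 h (8.84%) and 7 at 7 h (21%). Without those numbered 3 it was 1 at 1 h (0.23%), 3 at 2 h (2.97%) and 6 at 7 h (21.8%). A fit to the compared groups alone called 1 member at 1 h (0.148%), and 3 were called at 2 h with no filter on low counts (5.36%). With plain library totals the splits were 8 higher and 9 lower at 24 h and 10 and 8 at 48 h, where the median of all genes moved to 0.18 and 0.31. The 7 shoot markers together averaged 15400 CPM in SA shoots at 24 h, against 37900 in control shoots, and 12000 at 48 h, against 38600 in control shoots, and their part in the late results was not tested.

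GH3.3 was called higher in SA shoots at every time, by 1.94 to 3.33. It had 89.9, 96.3 and 85.5 CPM in SA shoots at 4 h, against 10.8, 8.78 and 7.38 CPM in control shoots, fully apart, a rise of 3.33 ± 0.186 (adjusted p = 7.95e-19). GH3.5 had 77.8, 91.4 and 105 CPM in SA shoots at 48 h and 16.6, 21.4 and 22.0 CPM in control shoots, also apart, a rise of 2.19 ± 0.230 (adjusted p = 2.21e-11). GH3.6 had 95.6, 89.1 and 104 CPM in SA shoots at 48 h, against 30.9, 32.6 and 40.3 CPM in control shoots, a rise of 1.47. GH3.2 was called higher up to 7 h and lower at 24 h. The GH3 sum was 302 ± 25.7 CPM in SA shoots at 4 h, against 123 ± 11.3 CPM in control shoots.

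Of the members called lower in SA shoots, 14 of 15 at 24 h and all 14 at 48 h were repressors, and the other was GH3.2. Repressors made up 26 of the 31 members tested in shoot, so most calls of either direction could fall on them. IAA1 (AT4G14560) had 2.64, 2.37 and 2.09 CPM in SA shoots at 24 h, against 8.19, 14.8 and 16.2 CPM in control shoots, a log2 fold change of -2.46 ± 0.277 (adjusted p = 1.83e-10). IAA3 had 14.5, 10.8 and 11.3 CPM in SA shoots at 24 h and 55.9, 49.8 and 63.9 CPM in control shoots, a log2 fold change of -2.21 ± 0.168 (adjusted p = 1.73e-15). Neither gene's groups overlapped. IAA4 (AT5G43700) had 28.5, 36.6 and 27.6 CPM in SA shoots at 48 h, against 61.2, 95.0 and 86.1 CPM in control shoots, a fall of 1.38 on the log2 scale. IAA28 (AT5G25890) went up, with 22.9, 24.1 and 22.7 CPM in SA shoots at 24 h and 13.5, 11.2 and 12.7 CPM in control shoots (0.90). IAA9 (AT5G65670) had 204, 204 and 187 CPM in SA shoots at 48 h, against 148, 145 and 147 CPM in control shoots (0.43).

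The SA response differed between the organs for 29 of 35 members, against 72.1% of all genes. Among members called in opposite directions, IAA18 had the largest difference between the organs (2.77 at 48 h), most of it from root. Its SA root values are given above, and it had 38.6, 43.0 and 40.3 CPM in SA shoots at 48 h, against 49.6, 56.2 and 50 CPM in control shoots, a log2 fold change of -0.35. With plain library totals that shoot value was -0.04 (adjusted p = 0.74). IAA13 and IAA16 were also higher in SA roots and lower in SA shoots at 24 and 48 h. IAA11 and IAA19 had the reverse at 48 h. IAA11 had 6.03, 6.04 and 6.28 CPM in SA roots against 8.28, 8.54 and 10.7 CPM in control roots (-0.62), and 14.6, 17.1 and 16.3 CPM in SA shoots against 7.16, 8.25 and 7.96 CPM in control shoots (1.04). IAA19 had 4.32, 3.79 and 5.14 CPM in SA shoots at 48 h and 1.52, 2.91 and 2.82 CPM in control shoots (0.84). Falls of IAA3 and IAA17 were called in both organs at 7, 24 and 48 h, and the size of the SA effect still differed between the organs (interaction adjusted p = 0.000477 and 7.67e-12).

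ABA and SA libraries were compared directly over the 6 times. All 34 tested members differed in root, against 94.7% of all genes, and 27 of 31 in shoot, against 82.6%. The 4 not called in shoot were IAA16, IAA17, IAA20 and IAA34. Library names of SA shoot at 2 h and of SA root replicates 2 and 3 at 24 h also begin with other letters than those of the ABA libraries. These libraries are part of the test. At 48 h GH3.3 and IAA19 had opposite calls in ABA and SA in both organs. GH3.3 fell by 1.43 in ABA roots and 0.68 in ABA shoots, and rose by 2.25 in SA roots and 2.77 in SA shoots. IAA19 had 0.62 in ABA roots and -0.67 in ABA shoots, and -1.24 in SA roots and 0.84 in SA shoots, all log2 fold changes. Its ABA shoot call at 48 h (adjusted p = 0.0419) was lost without the libraries numbered 2 or 3 (adjusted p = 0.537 and 0.311), with DESeq2 (0.075) and in a fit to the compared groups alone (0.131). GH3.17 in roots at 2 h was called higher in ABA (1.24) and lower in SA (-1.72).

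**Figure D5:**
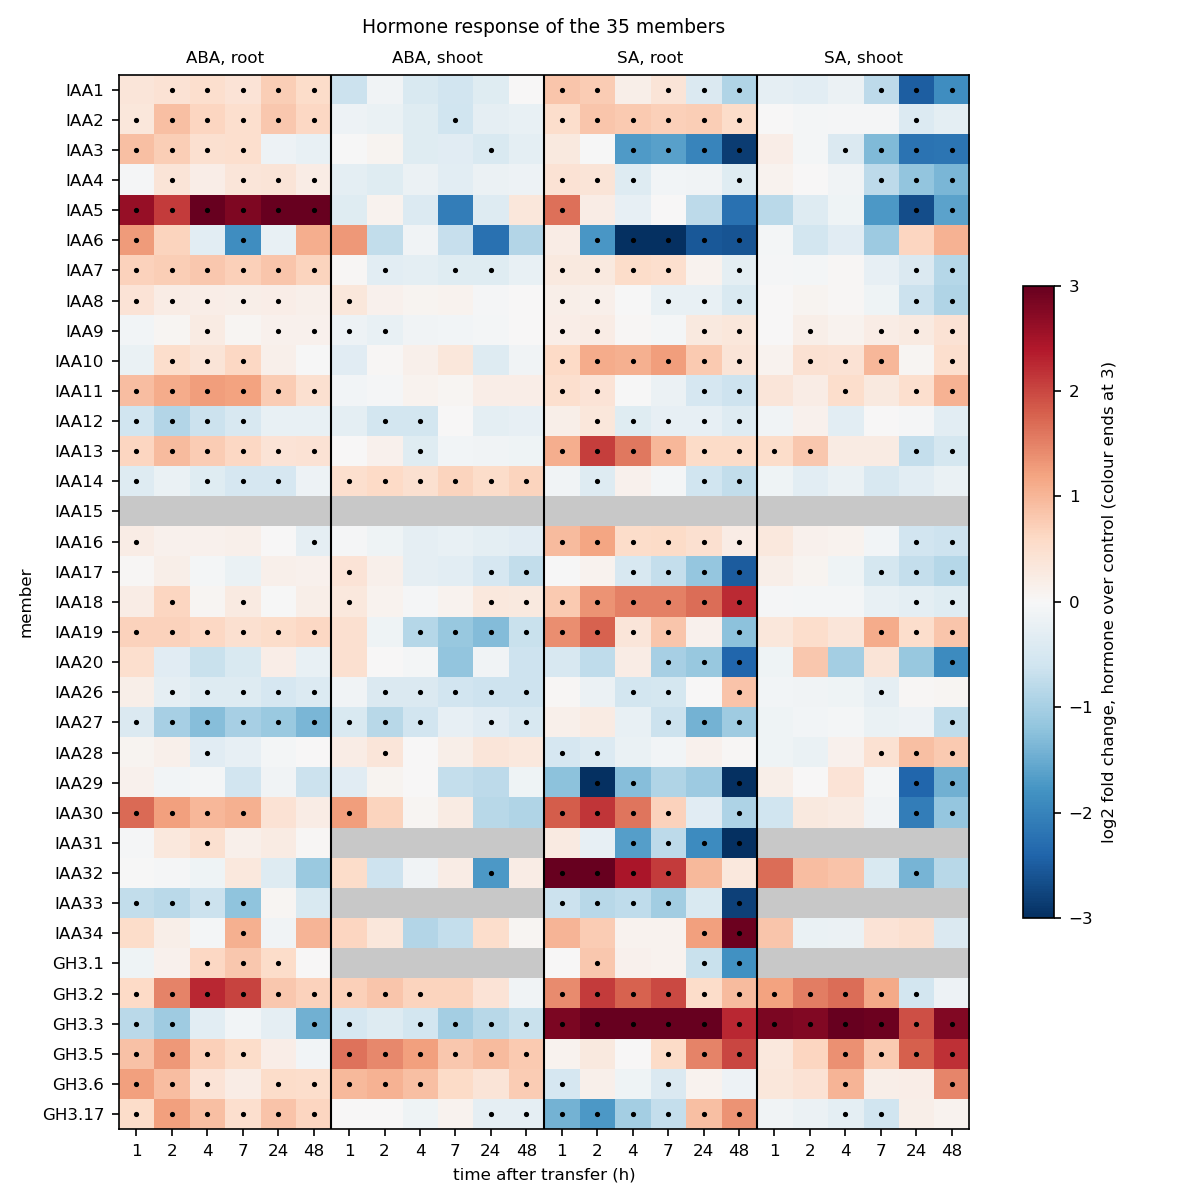
Log2 fold change of hormone over control (colour, cut at 3) for the 35 members by hours after transfer; dots mark adjusted p under 0.05 and grey marks members that did not pass the filter on low counts. GH3.3 is blue or pale in ABA and red in SA; cells of IAA5, IAA6 and IAA29 for which the text gives counts and no fold are coloured by the fitted value, which is no estimate of size.

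Members also differed between control seedlings at 0 h and those of later times. Control library names begin with other letters than at 0 h, from 2 h on in root and from 4 h on in shoot. At those times a difference from 0 h may go with the letters, with the hour of harvest or with both. No test separated them, so the values below are not read as an effect of transfer. Against 0 h, 28 of 34 were called over the 6 later times in root (87% of all genes) and 20 of 31 in shoot (63.6%). Without the libraries numbered 2 the shoot count was 10 (27.2%), and without those numbered 3 it was 13 (41.2%). GH3.3 was higher in control roots at 1 h by 1.89, where the letters are those of 0 h. GH3.2 was lower in control roots at 2, 4 and 7 h by 1.52, 1.59 and 1.86 on the log2 scale, where they are not. IAA3 was called lower in control roots at all 6 times (-0.51 to -1.16) and IAA1 higher in control shoots at all 6 (0.70 to 1.22). Fold changes of GH3.2 in treated roots at 2 to 7 h are therefore set against a control below its 0 h level.

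Other genes of auxin metabolism and response were read from lists chosen by function, in the test over all 6 times. The shares of all genes called there were 76.8% in ABA roots, 50.1% in ABA shoots, 92.6% in SA roots and 70.7% in SA shoots. Of 10 auxin synthesis genes tested (TAA/TAR and YUCCA), 8 were called in ABA roots, 9 in ABA shoots, 10 in SA roots and 6 in SA shoots. At single times 3 to 7 were called in ABA shoots (15.3% to 30.4% of all genes), at most 1 of these higher. In ABA roots it was 4 to 7 (32.1% to 52.6%), 1 to 5 of these higher. In SA roots 6 were lower and none higher at 1 h (45.2% of all genes called), and 7 and none at 2 h (61.5%). At 4 h 2 were lower and 3 higher (61.6%), the only time with more higher than lower. At 7 h 3 were lower and 2 higher (58.3%), at 24 h 2 and 1 (65%), and at 48 h 6 and 2 (74.9%). YUC9 averaged 25.5 ± 4.52 CPM in ABA roots at 2 h and 6.85 ± 0.558 CPM in control roots, a rise of 1.92. TAR2 averaged 2.26 ± 0.0306 CPM in SA shoots at 48 h and 19.4 ± 0.473 CPM in control shoots, a log2 fold change of -3.10. Of 6 TIR1/AFB receptor genes, 5 were called in ABA roots, 4 in ABA shoots, 6 in SA roots and 5 in SA shoots. GRH1 (AFB1) averaged 7.56 ± 0.774 CPM in SA shoots at 24 h, against 23.9 ± 3.15 CPM in control shoots. Of 15 ARF genes, 14 were called in ABA roots, 9 in ABA shoots, 15 in SA roots and 12 in SA shoots. MP (MONOPTEROS, ARF5) averaged 75.5 ± 2.67 CPM in roots after 48 h of SA and 31.6 ± 0.231 CPM in control roots, a rise of 1.26. Genes of auxin oxidation, glucosylation and conjugate hydrolysis were called in ABA roots for 7 of 7 tested, in ABA shoots for 4 of 6, in SA roots for 7 of 7 and in SA shoots for 6 of 6. DAO2, an auxin oxidase gene, averaged 5.57 ± 1.33 CPM in roots after 7 h of SA and 57.0 ± 1.20 CPM in control roots (-3.35), and IAR3, which releases auxin from conjugates, 128 ± 3.61 CPM in SA shoots at 48 h and 26.2 ± 2.33 CPM in control shoots (2.29). Of 4 other GH3 genes tested, 4 were called in ABA roots, 3 in ABA shoots, 4 in SA roots and 3 in SA shoots. PBS3, which acts in SA synthesis, averaged 5.33 ± 3.82 CPM in ABA roots at 48 h and 37.9 ± 2.14 CPM in control roots (-3.21), and 144 ± 5.20 CPM in SA shoots at 48 h and 7.62 ± 0.925 CPM in control shoots (4.24). Of 6 other auxin-induced genes tested, 4 were called in ABA roots, 5 in ABA shoots, 5 in SA roots and 4 in SA shoots. SAUR9, one of the small auxin-up RNA genes, averaged 6.54 ± 0.726 CPM in roots after 2 h of SA, against 1.54 ± 0.199 CPM in control roots (2.05). In ABA roots at 2 h it averaged 0.407 ± 0.203 CPM, with a log2 fold change of the other sign (-2.31).

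Assignment of reads limits some members. Gene models of IAA3, IAA5, IAA9, IAA10, IAA11, IAA13, IAA27 and IAA32 overlap a gene on the other strand, and whether featureCounts used strand is not given in the sources used here, so reads of the partner may be included. IAA34 overlaps a gene on its own strand. IAA20 and IAA30 share 102 bases at 95.1% identity, and 172 bases of IAA13 recur at 93.6% in AT2G33090.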

How the data were processed

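Poly(A)-selected stranded libraries were sequenced as 150-base pairs, per the labels' protocols. Per the submitters' processing notes, HISAT2, featureCounts and TAIR10 were used. The authors deposited raw counts per gene, and the strand setting and filters are not given in the sources used here. Library totals ran from 46189 to 221250466 counts, with depth limiting low genes. From these counts, edgeR 4.0.16 (R 4.3.3) was fitted per tissue to all 58 libraries (19 groups) after filterByExpr and TMM scaling. Quasi-likelihood tests were adjusted by Benjamini-Hochberg over all genes tested, at 0.05. Interactions and root against shoot came from a fit to all libraries of both tissues. SEs were derived from the F statistic. Gene models, promoters and coding sequences came from RefSeq TAIR10.1, with copies searched by BLAST 2.17.0, and 27445 of 27655 identifiers matched. Replicate numbers did not meet the rule for pairing, so the main fits hold no replicate term. Same-numbered shoot libraries still deviated together (mean correlation 0.375), as given at the end.

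The members and lists were chosen with earlier results of these data known. Members with every library value are, per tissue and hormone, the 4 with the largest called change among those whose mean reached 5 CPM, and those called in opposite directions in root and shoot at one time; others were chosen after their values were seen. List genes needed a called 2-fold change with a mean of 1 CPM or more. Alternatives were DESeq2 1.42.0, its size factors, no filter, a replicate block, fits to the compared groups alone, and leaving out libraries. Whether replicates came from separate plates is not stated beyond their labels, so p-values rest on the spread between these samples. That spread was estimated over all groups of a fit and not only from the groups compared.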

Additional observations from a re-analysis of the deposited data

Results flagged for a closer look

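In groups of 4 libraries, the highest or lowest value was tested against Dixon's 95% critical value, which chance exceeds in about 1 of 20 groups. It was exceeded in 7 of 69 groups. Among the shoot controls at 0 h, replicate 1 stood above the others for IAA7 (267 CPM), IAA14 (11.8), IAA28 (14.0) and GH3.5 (42.1), and replicate 3 for IAA31 (0.106). Among the root controls at 0 h, replicate 4 stood apart for IAA17 (139 CPM) and IAA34 (0.325).

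The hormone response differed between root and shoot for 22 members under ABA and 29 under SA in the edgeR interaction test over 6 times. Among members with large responses, the ABA interaction had adjusted p of 1.78e-08 for GH3.2, 0.000219 for GH3.3, 9.69e-10 for IAA27 and 0.0013 for GH3.5. The SA interaction had adjusted p of 7.38e-11 for GH3.3, 0.000477 for IAA3, 7.67e-12 for IAA17 and 0.00127 for GH3.5.

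Calls in opposite directions at the same time gave the following root-minus-shoot differences of log2 fold change, each at the time when it was largest. Under ABA they were 1.84 for IAA19, 1.21 for IAA7 and 1.14 for GH3.17 at 24 h, 1.15 for IAA13 at 4 h, and 1.1 for IAA2 and -1.15 for IAA14 at 7 h. Under SA they were 1.43 for IAA13, 1.27 for IAA2, 1.23 for GH3.2 and 1.17 for IAA16 at 24 h, 1.28 for IAA1 at 7 h, and 2.77 for IAA18, -1.46 for IAA11 and -1.88 for IAA19 at 48 h.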

How the results depend on the processing

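Of 306 counts of members called under the alternatives, 282 stayed within 1.5 times the reported count, and every such count in root, in the comparison of the organs and in the interaction tests did. Of 671 recomputed fold changes of named members, none changed sign and 74 no longer passed the threshold. Fits to only the groups compared gave 1 member instead of 11 in ABA shoots at 1 h and 1 instead of 3 in SA shoots at 1 h. DESeq2 gave 4 instead of 7 in ABA shoots at 7 h, and no filter gave 3 instead of 5 in SA shoots at 2 h. Leaving out every library of 1 replicate number gave ranges in ABA shoots of 4 to 13 at 1 h, 2 to 10 at 2 h, 2 to 13 at 4 h, 0 to 10 at 7 h, 3 to 14 at 24 h, 4 to 9 at 48 h and 11 to 21 over all times. In SA shoots the ranges were 1 to 4 at 1 h, 3 to 5 at 2 h, 3 to 7 at 4 h and 6 to 17 at 7 h, and in the shoot control series 10 to 24. The cause was not tested.

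With a replicate block no call of a named member changed, and counts moved by at most 1.5 times (17 instead of 12 in ABA shoots at 24 h). Same-numbered libraries deviated together with a mean correlation of 0.08 in root (25 of 54 pairs over 0.1) and 0.375 in shoot (45 of 48). A library correlated best with its own number in 51 of 108 cases in root and 83 of 96 in shoot, a hint from the data and not from the design. The shoot levels at 0 h without replicate 1 were an alternative chosen after seeing the data. Depth limits IAA5, IAA6, IAA15, IAA20, IAA29, IAA32 and IAA34, and in shoot IAA31, IAA33 and GH3.1, which had few counts per library.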
